A study of Schizosaccharomyces pombe with 6 samples.

Results

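Fission yeast, Schizosaccharomyces pombe, can draw carbon from glycerol. Described here are 7 genes of glycerol use, gluconeogenesis and glucose repression, of 2896 S. pombe genes measured on 6 Affymetrix arrays. They are gut2, gld1, dak1 and dak2 for glycerol use, fbp1 for gluconeogenesis, and the regulators scr1 and rsv1. All 7 were measured, each by 1 probe set. gut2, dak2 and rsv1 were picked for their pattern in these data, and their values are given as a description with no test. dak1, gld1, fbp1 and scr1 were chosen for their role, with earlier results of these data known, and were tested among all genes.

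The arrays hold total RNA of mixed cultures in which h+ strain YHL6381 (P cells) and h- strain SPQ-01 (M cells) met in equal parts. Each strain grew by itself in YEPD at 30 °C until the OD600 reached 5.0, and the mixtures then spent 90 min in fresh YEPD or in YEPME. Each medium has 3 arrays, labelled biological replicates 1 to 3, and so few arrays limit the precision. The series concerns sexual flocculation, and in its design text the mixtures in YEPME are the flocculated ones. That text and the sample labels attach the codes YSD and YSM to opposite media; samples are grouped here by the medium in their own labels, and the sign of each medium difference would turn under the other reading. The labels also call the YEPME strain diploid. What YEPME contains, and the strains' genotypes beyond mating type, are not stated by the labels.

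Glycerol enters metabolism by a pair of routes. In one, Gld1 oxidises glycerol to dihydroxyacetone, which the kinases Dak1 and Dak2 phosphorylate. In the other, glycerol is phosphorylated first and Gut2, the mitochondrial glycerol-3-phosphate dehydrogenase, oxidises the product. Both yield a triose phosphate, which can be burnt or built up to hexose phosphate through Fbp1, fructose-1,6-bisphosphatase. In S. pombe fbp1 is the textbook glucose-repressed gene, held down by the glucose-sensing cAMP pathway and by Scr1, a zinc finger repressor related to Mig1 of S. cerevisiae. Rsv1 is a zinc finger protein named for its role in survival in stationary phase.

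Replicate 1 of both media stood apart from replicates 2 and 3. The correlation across probe sets was 0.994 between both replicate 1 arrays, 0.998 to 0.999 among the remaining 4, and 0.976 to 0.981 from one set to the other. Levels are log2 RMA values, on which 1 unit is a 2-fold step. The background limit, the 95th percentile of the S. cerevisiae probe sets on the same array, was 5.60 and 5.59 in replicate 1 and 4.78 to 4.81 on the other 4. All measured P cell markers (5) and M cell markers (8) lay above the limit on every array. The summed signal of the M cell markers, as log2, was 13.82, 11.99 and 11.96 in YEPD replicates 1, 2 and 3 and 12.35, 12.20 and 12.19 in YEPME. That of the P cell markers ranged from 12.40 to 12.63 in YEPD and from 12.59 to 12.68 in YEPME. The summed M cell signal was thus highest in YEPD replicate 1, lower in YEPME in replicate 1 and higher in YEPME in replicates 2 and 3. The summed P cell signal was higher in YEPME in every pair. Bright genes weigh most in a sum, but the mean log2 value of each list had the same directions. Single markers departed from them. In replicate 1, map1 differed by -0.43 and mam3 by 0.36, and within replicates 2 and 3 mam2 differed by -0.0027 and mam4 by -0.064. In such bulk RNA, fewer cells of a type and less RNA per cell cannot be told apart.

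Within replicates 2 and 3, gld1, dak1 and fbp1 rose in YEPME, by 1.32-, 1.15- and 1.30-fold, and scr1 did not pass the test. gut2 and dak2 had larger differences there, of 2.29-fold and 2.78-fold. In replicate 1, fbp1 and rsv1 were the members with the largest differences, 4.44-fold and 3.25-fold, while dak2 and dak1 were slightly lower in YEPME. The other contrast is between replicates: gut2, dak2, gld1 and dak1 stood far higher in replicate 1 whatever the medium, fbp1 stood higher in its YEPME array alone, and rsv1 exceeded background in replicate 1 alone.

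**Figure D1:**
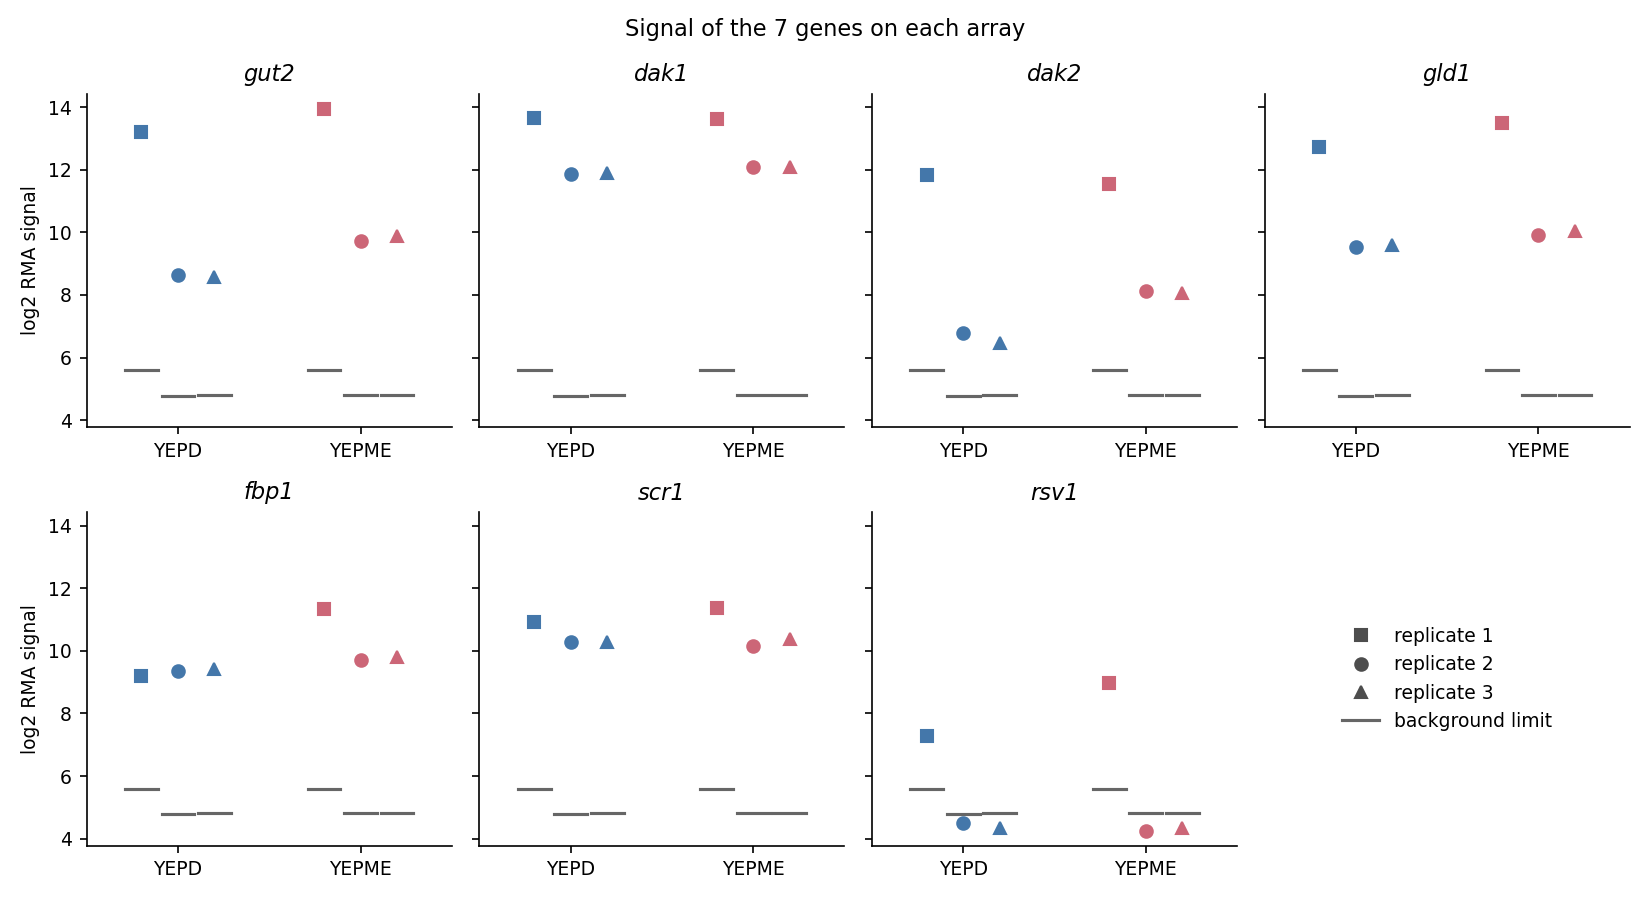
Log2 RMA signal of the 7 genes (vertical axis) on each of the 6 arrays, blue for YEPD and red for YEPME; squares, circles and triangles are replicates 1, 2 and 3 and short grey lines the background limit of each array. The squares lie far above the other symbols for gut2, dak2 and gld1, and rsv1 lies under the limit on the 4 arrays of replicates 2 and 3.

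On the glycerol dehydrogenase route, the level of gld1 (SPAC13F5.03C) was 12.72, 9.54 and 9.60 in YEPD replicates 1, 2 and 3 and 13.49, 9.92 and 10.03 in YEPME. It was higher in YEPME in every pair, by 0.76, 0.38 and 0.43 on the log2 scale, or 1.70-, 1.30- and 1.35-fold. The media overlapped over all 6 arrays. Within replicates 2 and 3 both YEPME arrays lay above both YEPD arrays, as in 32.5% of all genes. Within replicates 2 and 3, gld1 rose by 0.40 ± 0.05 (SE, 2 arrays per medium; limma, adjusted p = 0.0114).

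Of the 4 tested members, 3 rose within replicates 2 and 3, and 6.91% of all genes did so. Mating type markers rose in the same fit. Of 5 P cell markers 4 rose, map4, map1, map3 and map2, by 0.59, 0.49, 0.36 and 0.30, and of 8 M cell markers 2 rose, mfm2 and mam3, by 0.73 and 0.39. Beside these, gld1 rose by 0.40, fbp1 by 0.38 and dak1 by 0.20, and the markers' part in the members' rises was not tested. The p-values measure only the spread between 2 arrays per medium. The calls for gld1 and fbp1 need both YEPD arrays: without YEPD replicate 2 or 3 the adjusted p was 0.110 or 0.0857 for gld1 and 0.102 or 0.0802 for fbp1. dak1 lost its call without any 1 of the 4 arrays (adjusted p = 0.0526 to 0.200). With limma on all 6 arrays, 0 of the 4 passed with no block (0 at an unadjusted p under 0.05; background 0% higher). With replicate 1 as a batch block, 0 of 4 passed, against 0.760% of genes higher, and gld1 and fbp1 had an unadjusted p under 0.05. gld1 came nearest, with 0.52 ± 0.09 (SE, n = 3 per medium; limma with the batch block, adjusted p = 0.0754). After quantile normalization of the S. pombe genes gld1 passed that fit, with 0.50 and an adjusted p of 0.0482 (limma).

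The dihydroxyacetone kinase genes differed from each other. dak1 (SPAC22A12.11) gave 13.65, 11.86 and 11.91 in YEPD replicates 1 to 3 and 13.63, 12.08 and 12.08 in YEPME. Its pairs differed by -0.022, 0.22 and 0.17. Within replicates 2 and 3 dak1 rose by 0.20 ± 0.03 (SE; limma, adjusted p = 0.0262), a 1.15-fold step. Both YEPME arrays lay above both YEPD arrays there, as in 32.5% of all genes. The value of dak1 in replicate 1 was almost equal in the media.

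dak2 (SPAC977.16C), for the other kinase, gave 11.85, 6.77 and 6.45 in YEPD and 11.55, 8.13 and 8.05 in YEPME. The pairs differed by -0.30, 1.35 and 1.60, so that dak2 was 2.55- and 3.03-fold higher in YEPME in replicates 2 and 3 and 0.812 times as high in replicate 1. Ranked by the mean difference of replicates 2 and 3, dak2 was number 3 of the 2896 genes, and dak1 number 171. As dak2 was picked for this pattern, its rank is a description. dak2 is the protein-coding gene number 24 from the nearer end of chromosome I in RefSeq ASM294v3, whereas the other members lie 65 to 910 genes from an end. No level of its 4 nearest neighbours there was analysed here.

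gut2 (SPCC1223.03C), for the mitochondrial glycerol-3-phosphate dehydrogenase, gave 13.20, 8.63 and 8.58 in YEPD and 13.96, 9.72 and 9.88 in YEPME. It was higher in YEPME in all 3 pairs, by 0.76, 1.09 and 1.31, or 1.70-, 2.13- and 2.47-fold. By the mean of replicates 2 and 3 it was number 4 of the 2896 genes, and by replicate 1 number 84. As gut2 was picked for its pattern, its ranks are a description. The smallest of the 3 differences thus lay where its level was highest.

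fbp1 (SPBC1198.14C), for fructose-1,6-bisphosphatase, gave 9.18, 9.36 and 9.41 in YEPD and 11.34, 9.72 and 9.80 in YEPME. All 3 YEPME arrays lay above all 3 YEPD arrays, and among the members only fbp1 showed this over all 6 arrays. The share of all genes that did so was not counted, so this is a description. The pairs differed by 2.15, 0.36 and 0.39, or 4.44-, 1.28- and 1.31-fold. Within replicates 2 and 3 it rose by 0.38 ± 0.04 (SE; limma, adjusted p = 0.00842). Over the 3 pairs the mean was 0.97 ± 1.03 (SD of the pairs, n = 3), and replicate 1 decides its size. By the difference in replicate 1, fbp1 was number 5 of the 2896 genes, by that in replicates 2 and 3 number 59.

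scr1 (SPBC1D7.02C), for the Mig1-related repressor, gave 10.91, 10.29 and 10.28 in YEPD and 11.37, 10.16 and 10.37 in YEPME. The pairs differed by 0.46, -0.14 and 0.083, with no common sign. Within replicates 2 and 3 the difference was -0.027 ± 0.074 (SE; limma, adjusted p = 0.832), with an interval of -0.22 to 0.17 (95%). The sign of this value turned without YEPME replicate 2 (0.079).

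rsv1 (SPBP4H10.09), for the zinc finger protein of stationary phase, gave 7.28, 4.49 and 4.35 in YEPD and 8.98, 4.26 and 4.34 in YEPME. Only the 2 replicate 1 arrays exceeded their background limits, so that replicates 2 and 3 give no fold between the media. In replicate 1, rsv1 was 1.70 higher in YEPME, or 3.25-fold, which made it number 10 of the 2896 genes in that pair. As rsv1 was picked for its pattern, this rank is a description. The other 6 members were above the limit on all 6 arrays.

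**Figure D2:**
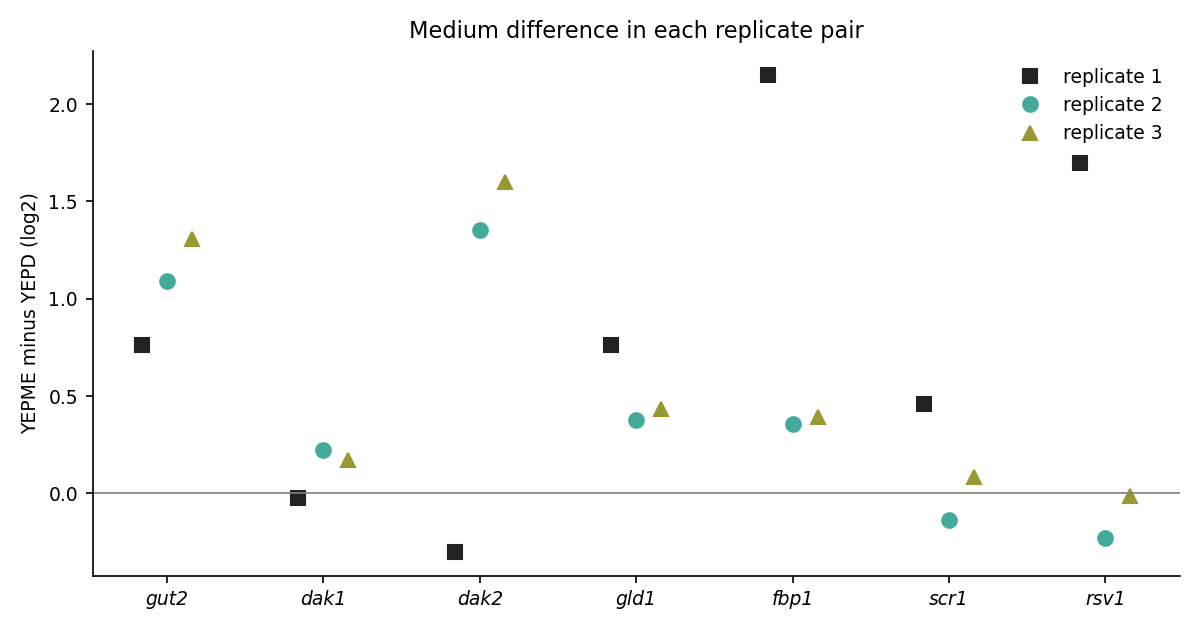
YEPME minus YEPD on the log2 scale (vertical axis) for each gene in replicate pair 1 (squares), 2 (circles) and 3 (triangles). The circles and triangles lie together for every gene, at 1.09 to 1.60 for gut2 and dak2, while the squares lie far above them for fbp1 (2.15) and rsv1 (1.70) and below them for dak2 (-0.30).

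Of the 7 members, 3 were higher in YEPME in all 3 pairs (gut2, gld1 and fbp1), as were 16.7% of all genes. 5 were higher without overlap in replicates 2 and 3, as were 32.5% of all genes. Since gut2 and dak2 were picked for their pattern, these counts are a description. The median difference over all genes was -0.042 in replicate 1 and 0.00 in each of replicates 2 and 3.

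The medium difference of all 4 tested members departed between replicate 1 and the other replicates, as did 46.4% of all genes in a limma interaction test. In 7 of 8 M cell markers and 1 of 5 P cell markers the difference was lower in replicate 1, against 27.4% of all genes. The markers' part was not tested. The test assumes that the single replicate 1 array of each medium varies like the others. For fbp1 the difference was larger in replicate 1 by 1.78 ± 0.07 (SE; adjusted p = 6.08e-04). For scr1 it was larger by 0.48 ± 0.13 (adjusted p = 0.0344), and for gld1 by 0.36 ± 0.09 (adjusted p = 0.0288). For dak1 it was smaller, by -0.22 ± 0.06 (adjusted p = 0.0370). Without YEPD replicate 2 or 3 the calls for scr1, gld1 and dak1 were lost (adjusted p = 0.0765 to 0.136), and dak1 also lost it without either YEPME array. After quantile normalization gld1 (0.23, adjusted p = 0.105) and dak1 (-0.19, adjusted p = 0.0604) did not pass limma.

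The step between replicates was larger than any medium difference for gut2, gld1, dak1, dak2 and scr1. As the mean of both media, replicate 1 stood above replicates 2 and 3 by 4.38 for gut2 and by 4.35 for dak2, or 20.8- and 20.3-fold. gld1 was higher by 3.33 ± 0.10 (SE, 2 against 4 arrays; limma, adjusted p = 4.07e-05), or 10.1-fold. dak1 was higher by 1.66 ± 0.07 (adjusted p = 6.38e-05), or 3.16-fold, and scr1 by 0.86 ± 0.13 (adjusted p = 0.00268), or 1.82-fold. Of the 4 tested members 3 were higher, as were 35.0% of all genes. Of the mating type markers, 4 of 8 for M cells and 1 of 5 for P cells were higher in replicate 1. Of those for P cells 2 were lower, against 36.0% of all genes. The markers' part was not tested. The p-values compare 2 arrays with 4 and not known culture conditions.

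fbp1 behaved otherwise. In YEPME its replicate 1 array lay 1.57 above the mean of the other 2, whereas in YEPD it lay 0.20 below them. The mean of both, 0.69 ± 0.40 (SE; limma, adjusted p = 0.176), therefore stands for neither medium, and it turned to -0.20 without YEPME replicate 1.

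For rsv1, replicate 1 had a mean of 8.13 and the other replicates a mean of 4.36, below background. With the limits of replicates 2 and 3 in place of their values, the level in replicate 1 was 10.0-fold higher. That is no lower bound on the step, since the limits of replicate 1 were higher, 5.60 and 5.59 against 4.78 to 4.81. Above the limit of its own array, rsv1 in replicate 1 stood by 1.68 in YEPD and 3.39 in YEPME. In YEPME the gap between replicate 1 and the other 2 arrays was wider than in YEPD, 4.68 against 2.86, with values under background. dak2 was the reverse, with a gap of 5.23 in YEPD and 3.46 in YEPME. gut2 had gaps of 4.59 and 4.16, and gld1 of 3.15 and 3.51.

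Among all 2896 genes ordered by the step between replicates, gut2 was number 3, dak2 number 4 and gld1 number 9. The ranks of gut2 and dak2, which were picked for their pattern, are a description. rsv1 lay under background in replicates 2 and 3 and is given no rank. Steps of at least 8-fold upward were found for 4 of the 7 members, gut2, dak2, gld1 and rsv1, and for 0.414% of all genes. The step of rsv1 rests on values under background in replicates 2 and 3, and its size is uncertain. 3 of these 4 were picked with this pattern in view, so the count is a description. Steps of at least 2-fold upward were found for 5 members and 7.18% of genes. In 6 members both replicate 1 arrays lay above the other 4 without overlap, as in 38.5% of genes; fbp1 was the exception.

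**Figure D3:**
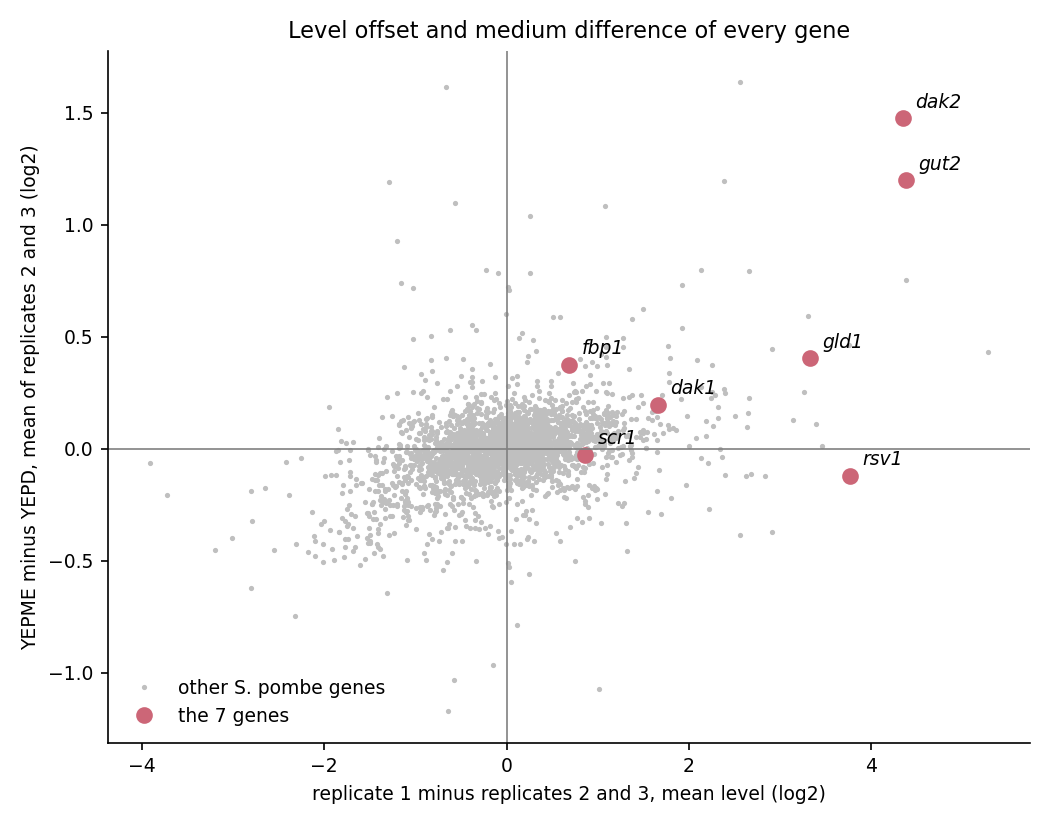
Each point is 1 of 2896 S. pombe genes, with the mean level in replicate 1 minus that in replicates 2 and 3 on the horizontal axis and YEPME minus YEPD over replicates 2 and 3 on the vertical axis, both log2. gut2 and dak2 (red) lie at the upper right, at 4.38 and 1.20 and at 4.35 and 1.48. rsv1 lies at 3.77 with a medium difference near 0, and both values rest on arrays where it was under background. The axes share the 4 arrays of replicates 2 and 3.

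The members were also compared with each other over the 6 arrays, each gene centred on its own mean. The closest members were gut2 and dak2, at a Euclidean distance of 0.84 log2 units, followed by gld1 and rsv1 at 0.99. Both gut2 and dak2 were picked for their pattern on these arrays, so their closeness describes that choice, and the distances of rsv1 rest on 4 arrays under background. fbp1 and dak2 were farthest apart, at 4.71. The Pearson correlation over the 6 arrays was 0.99 for gut2 and dak2 and 0.46 for fbp1 and dak2. All such correlations carry the step between replicates, which the arrays share.

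The genes most like each member were taken from 2862 others above background, by the same distance. The nearest to gut2 were inv1, for invertase (0.56), dak2 (0.84) and the hexose transporter gene ght4 (1.35). dak2 had the nearest genes gut2 (0.84), inv1 (0.87) and ght4 (1.26). In inv1 the step between replicates was 4.38, close to that of gut2 and dak2, and the pair differences were 0.29, 0.64 and 0.87.

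gld1 lay nearest to ctt1, for catalase (0.23), lsd90 (0.42) and the glutathione transferase gene gst2 (0.51). ctt1 differed between the media by 0.93, 0.60 and 0.58 in the 3 pairs and between replicates by 3.31. rsv1 lay nearest to lsd90 (0.63), gld1 (0.99) and ctt1 (1.06). The gene lsd90 differed between the media by 1.15, -0.03 and 0.25 and between replicates by 3.40.

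dak1 lay nearest to ntp1, for neutral trehalase (0.13), gdh1, for glutamate dehydrogenase (0.16), and gos1, for a vesicle fusion protein (0.16). scr1 lay nearest to the kinase gene kin1 (0.10), vps5 (0.11) and lsb6 (0.15). fbp1 had no gene as close as these. Its nearest were mug150 (0.67), jmj1 (0.69) and clr4, for the heterochromatin histone methyltransferase (0.75). Both mug150 and jmj1 had a large difference in replicate 1 (2.10 and 1.93), but jmj1 differed by -0.10 and 0.02 in the other pairs where fbp1 differed by 0.36 and 0.39.

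Other genes of the pathway were taken from lists chosen by role. Beside the 4 members, the glycerol list had 3 measured genes. Of these gpd1, for the NAD-linked glycerol-3-phosphate dehydrogenase of glycerol synthesis, rose within replicates 2 and 3 by 0.25 ± 0.04 (SE; limma, adjusted p = 0.0153), and differed by 0.48 in replicate 1. Its paralogue gpd2 had a difference of -0.0074 within replicates 2 and 3 and of 0.50 in replicate 1. The third gene, fps1, was listed for the glycerol channel of that name in S. cerevisiae, but in S. pombe the name belongs to farnesyl pyrophosphate synthase; it differed by 0.030 and -0.16.

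Of the 6 measured genes for the steps that gluconeogenesis shares with glycolysis, pgi1, for glucose-6-phosphate isomerase, rose within replicates 2 and 3 by 0.17 ± 0.03 (SE; limma, adjusted p = 0.0293) and differed by -0.27 in replicate 1. The other 5 differed by 0.01 to 0.05 there and by -0.085 to -0.042 in replicate 1. The list had a median of 0.02 within replicates 2 and 3, against 0.00 for all genes. fbp1, the step that glycolysis does not use, lay above all 6 in both.

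The cAMP pathway, which senses glucose and represses fbp1, had 11 measured genes. Within replicates 2 and 3, 3 of them rose by limma: gpa2, for the G protein alpha subunit, by 0.27 ± 0.03, cgs1, for the regulatory subunit of protein kinase A, by 0.25 ± 0.05, and git1 by 0.16 ± 0.03 (SE; adjusted p = 0.00861, 0.0442 and 0.0434). Of all genes 6.91% rose in this fit. The list's median was 0.11, against 0.00 for all genes. pka1, for the catalytic subunit, differed by -0.40, 0.39 and -0.11 in the 3 pairs. In level, 7 of the 11 were higher and 1 lower in replicate 1, against 35.0% and 36.0% of all genes. The list's median step was 1.16, against 0.00 for all genes.

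Of 14 other regulators of the glucose response, 0 passed limma within replicates 2 and 3, against 15.6% of all genes in either direction, and 1 had an unadjusted p under 0.05. The list's median was 0.07. In the interaction test 3 of the 14 had a higher difference in replicate 1, rsv2, pcr1 and php3, and 5 a lower one, tup11, cbs2, amk2, php2 and hxk2. Over all genes 19.0% had a higher and 27.4% a lower one. rsv2, named like rsv1, had a difference of 1.52 in replicate 1 and of -0.09 ± 0.08 over the other pairs (interaction, limma, adjusted p = 0.00210). pcr1, for the partner of Atf1 at the fbp1 promoter, differed by 1.61 and by 0.07 ± 0.07 (adjusted p = 0.00155). Both rsv2 and pcr1 were named after their values were seen, so these results are a description. rsv1 also differed in replicate 1, by 1.70, but it lay under background in the other pairs and cannot be compared with rsv2 and pcr1 there. The corepressor genes tup11 and tup12 differed by -0.23 and -0.19 in replicate 1 and by 0.05 and 0.08 within replicates 2 and 3, and the gene of their partner ssn6 by 0.02 and -0.09.

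Of 8 other measured glucose-repressed or sugar uptake genes, inv1, ght3 and ght4 rose within replicates 2 and 3, by 0.75 ± 0.07, 1.19 ± 0.06 and 0.46 ± 0.05 (SE; limma, adjusted p = 0.00505, 0.00102 and 0.00641). These were 3 of 8, against 6.91% of all genes. In replicate 1 ght3 and ght4 differed by -1.81 and -0.49. ght1 differed by -1.89 there and by 0.32 and 0.54 in the other pairs, and did not pass within them (limma, adjusted p = 0.126). Like dak2, ght1, ght3, ght4 and ght5 were lower in YEPME in replicate 1 and higher in the other pairs. For ght5 the pairs differed by only -0.14, 0.06 and 0.02. By sign, ght6, ght8 and adh4 ran the opposite way. They did not pass within replicates 2 and 3 (limma, adjusted p = 0.377, 0.0732 and 0.0622), and the lowest value of ght6, 5.01, lay near background. In level, 6 of the 8 were higher and 1 lower in replicate 1, against 35.0% and 36.0% of all genes, with a median of 1.71. The other lists, without the members, also leaned upward in replicate 1. Higher were 6 of the 6 shared steps (median 0.39) and 2 of the 3 glycerol genes (median 0.47). Of the 14 other regulators 11 were higher and 2 lower (median 0.59).

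**Figure D4:**
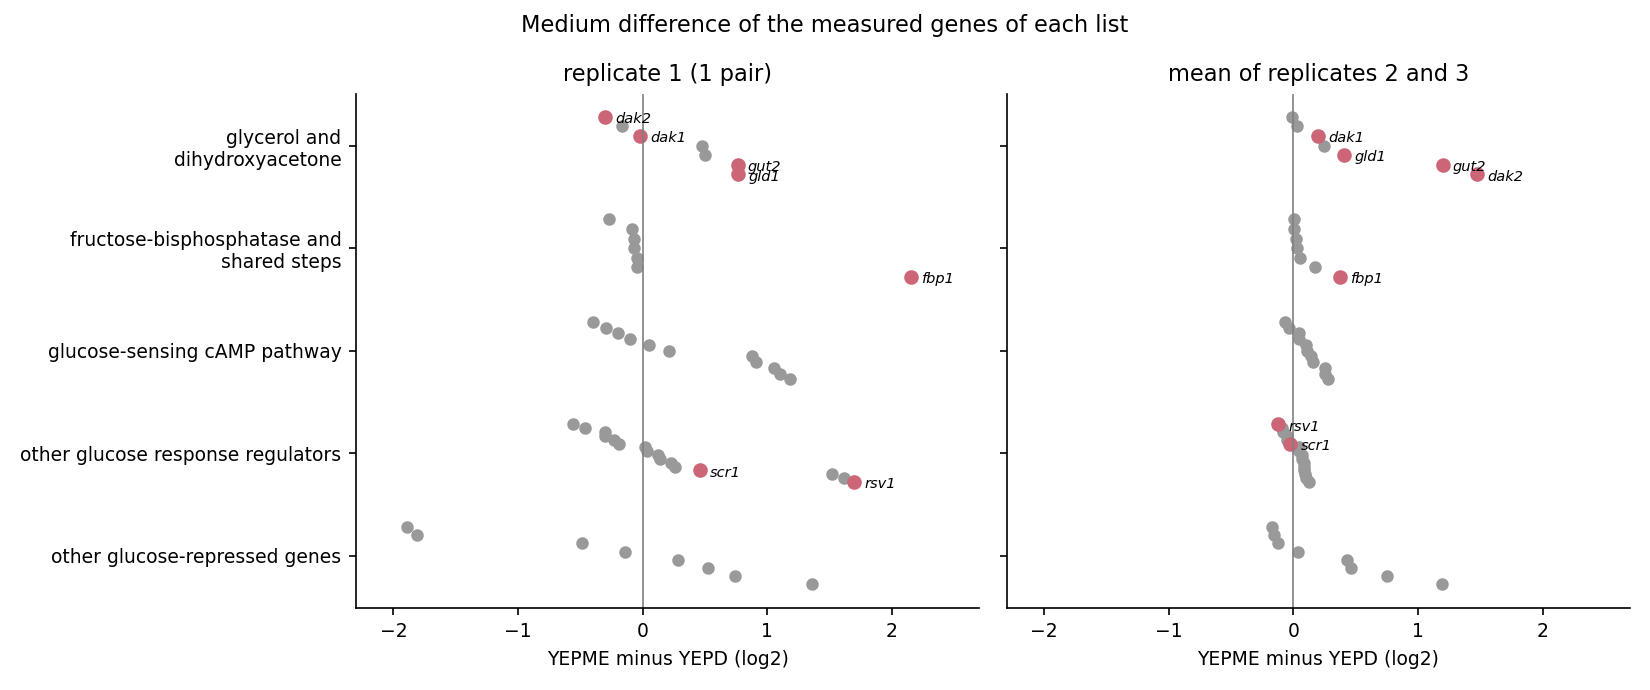
YEPME minus YEPD on the log2 scale (horizontal axes) for the measured genes of each list, in replicate 1 on the left and over replicates 2 and 3 on the right; each point is a gene and the 7 members are red and named. On the left fbp1 (2.15) and rsv1 (1.70) lie farthest right; on the right dak2 (1.48) and gut2 (1.20) do.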

How the data were processed

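The values are log2 RMA signals of 10924 probe sets as deposited by the authors, who used RMA and Partek, per the submitters' processing notes. That method subtracts background, brings arrays to a common distribution and combines the probes of each set. No source used here gives versions or says that all 6 arrays were normalized as one set. The median over all probe sets was 5.36 and 5.34 in replicate 1 and 4.59 to 4.65 in replicates 2 and 3. Over the S. pombe genes it was 10.22 on both replicate 1 arrays and 10.28 to 10.31 in replicates 2 and 3. A separate normalization could add to the step between replicates, and its part was not tested. Platform annotation and RefSeq ASM294v3 named 2914 probe sets with a single S. pombe gene (3 by symbol only), or 2896 genes, each by its brightest probe set. The background limit came from 2600 S. cerevisiae probe sets. No coordinates or sequences are printed.

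limma 3.58.1 (R 4.3.3; lmFit, eBayes, two-sided) was fitted on all 2896 genes, with Benjamini-Hochberg adjustment and a threshold of 0.05. The fits had no block, replicate 1 as a batch block, replicates 2 and 3 alone, the step between replicates, and the interaction. The code was tested on simulated data. Deviations from group means correlated at 0.853, 0.835 and 0.836 between same-numbered arrays of replicates 1, 2 and 3, over the 0.1 set for pairing. These values carry the step between replicates, which replicates 2 and 3 share. They therefore cannot show that same-numbered arrays of replicates 2 and 3 are paired, and pairs here follow the replicate numbers in the labels. Members and lists were chosen with earlier results of these data known. Genes named beside the members were the 3 nearest in distance. From each list came those called where 5 or fewer were, or the 3 with the largest difference. After their values were seen, rsv2, pcr1, pka1, tup11, tup12, ssn6, cbs2, amk2, php2, php3 and hxk2 were added. So were ght1, ght5, ght6, ght8, adh4 and the mating type markers. Alternatives were array centring, quantile normalization, a filter on dim genes, mean probe sets, trend and robust eBayes, the replicate block and leaving out each array.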

Additional observations from a re-analysis of the deposited data

Results flagged for a closer look

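The 4 tested members had a medium difference in replicate 1 that departed from that in replicates 2 and 3 in the limma interaction test. The departures were 1.78 for fbp1, 0.484 for scr1, 0.361 for gld1 and -0.219 for dak1 (log2, replicate 1 minus the others). Replicate 1 has 1 array per medium, and 46.4% of all genes passed the same test. The cause was not tested. Groups of 3 arrays were too small to look for single outlying arrays.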

How the results depend on the processing

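With no block, 0 genes passed limma under every alternative, with 19 to 66 at an unadjusted p under 0.05 when 1 array was left out; with the replicate number as a block (replicate block) 0 passed too, with 317 at an unadjusted p under 0.05, and the 4 tested members stayed without a call. With the batch block, 60 genes passed, and leaving out 1 array gave 0 to 452: 0 without any array of replicates 2 and 3, and 452 without either array of replicate 1, which leaves the fit within replicates 2 and 3. That fit called 452 genes, 753 with trend and robust settings, and 19 to 483 with 1 array left out, the lowest without YEPD replicate 2 (19) or 3 (20). The interaction called 1344 genes and 592 to 1429 with 1 array left out, the lowest without YEPD replicate 3 (592) or 2 (627). The level step called 2056 genes and 1739 to 2362 with 1 array left out.

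For the 4 tested members, 130 values kept direction and call, 18 lost a call, 8 gained one and 4 turned sign. For gut2, dak2 and rsv1, which have no call, 101 values kept their direction and moved by less than the spread of the pairs, and 3, all of rsv1, turned sign. With 1 array left out, the level step of fbp1 ranged from -0.20 to 1.57; the medium difference with the batch block ranged from -0.027 to 0.24 for scr1 and from -0.12 to 0.70 for rsv1, and that within replicates 2 and 3 from -0.13 to 0.079 for scr1. Negative values with the batch block came without either replicate 1 array. rsv1 within replicates 2 and 3 went from -0.12 to 0.036 after quantile normalization, with values under background. The causes were not tested. Signal near background limits what can be said of rsv1.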

Other observations

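The array also carries S. cerevisiae probe sets named DAK1, DAK2, FBP1, GUT2 and PCK1. Each lay below the background limit on all 6 arrays, between 3.03 and 5.28. Each also had a higher mean in replicate 1 than in replicates 2 and 3. The means were 4.27 against 3.30 for DAK1, 5.19 against 4.57 for DAK2 and 4.16 against 3.55 for FBP1. For GUT2 they were 4.88 against 3.87 and for PCK1 4.68 against 4.47. Signal under background thus also carried a step between replicates, and its part in the members' steps was not tested. Of the 28 nearest protein-coding neighbours of the members, 2 on each side, 13 were measured. Their step between replicates lay between -0.77 and 1.10, below those of gut2, dak2, gld1, dak1 and rsv1. nmt1 and set11, on either side of gut2, had steps of -0.34 and -0.77, against 4.38 for gut2. qcr10, next to rsv1, had a step of 1.07, and tfg2, near fbp1, of 1.10.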
